A study of Canis lupus familiaris with 26 samples.

Results

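The immediate-early genes described here were NR4A1, FOS, FOSB, JUNB, EGR1, ATF3 and IER2, which were followed through the canine corpus luteum (CL) from day 5 to day 30 after ovulation. They were named together with JUN and DUSP1 as a group of 9 genes. An identifier was found for 7 of the 9 in the gene tables published with the study, and these 7 of 19856 counted genes were analysed. JUN and DUSP1 were not analysed here.

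Immediate-early genes are transcribed within minutes after a cell receives a stimulus, from transcription factors already present in the cell and without new protein synthesis. Their transcripts are short-lived, and many of their products are transcription factors that act on a later wave of genes. In the ovary, several of them are known to respond to luteinizing hormone, growth factors and prostaglandins, and they also respond to handling, injury and lack of blood supply of a tissue.

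Poly-A selected RNA from trimmed CL of individual bitches was sequenced, with 1 dog per sample. The dogs were of various breeds and ages per the labels, and of mixed breed per the study's methods. Treated dogs received the cyclooxygenase 2 (COX2) inhibitor firocoxib (Previcox) by mouth at 10 mg/kg per day from ovulation (day 0) until ovariohysterectomy on day 5, 10, 20 or 30. Control dogs underwent surgery after the same periods. They were given a placebo per the treatment protocol and the study's methods, although the design text of the series calls them untreated. All dogs had a spontaneous estrus and carried no genetic change, and day 5 had 4 control and 4 treated samples while days 10, 20 and 30 had 3 of each. Days 5 and 10 are called early and days 20 and 30 mature below.

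Between 12831896 and 22658950 reads were counted on genes per sample, with a median of 17909942. Markers of luteal cells were present in all groups, and of 9 fixed for this check the 4 with an identifier (LHCGR, PRLR, FDX1 and CYP19A1) summed to between 393 and 4126 CPM per sample. CPM are read counts relative to library size, scaled with TMM factors, which correct for library composition. They were not divided by transcript length, so they are compared between samples and not between genes. Some libraries stood apart. Omission of day 20 treated replicate 2 raised the number of differentially expressed genes (DEGs, defined by a P below 0.01 and an FDR below 0.1) of that day's contrast from 14 to 1016, and omission of day 30 control replicate 2 raised that of the time contrast in controls from 2774 to 4133. The effect of leaving them out is given beside the results that they move most.

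The contrast of treated over control samples on day 20 had the largest differences of the 7 genes. All 7 were higher in treated samples, as were 54.3% of all genes, with log2 fold changes between 2.61 and 4.72 and a median of 3.58, against a median of 0.11 over all genes tested. For all 7, every treated sample was above every control sample, which held in this direction for 15.8% of the 13726 genes tested. None of the 7 was a DEG by edgeR's quasi-likelihood test, by which 0.102% of genes were called, although 7 of 7 had an unadjusted P below 0.05 (17% of all genes) and 6 of 7 one below 0.01 (5.18% of all genes). DESeq2 called all 7, as it did 10.8% of all genes. The identifiers of these genes were taken from the published list of genes higher in this same contrast, the only list that holds them. The direction, the size, the separation and the P of the 7 genes on day 20 thus follow in part from that choice, so these values describe the genes, and nothing is read from their counts against those of all genes. In bulk tissue, more cells that express a gene and more RNA of it per cell cannot be told apart.

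**Figure D1:**
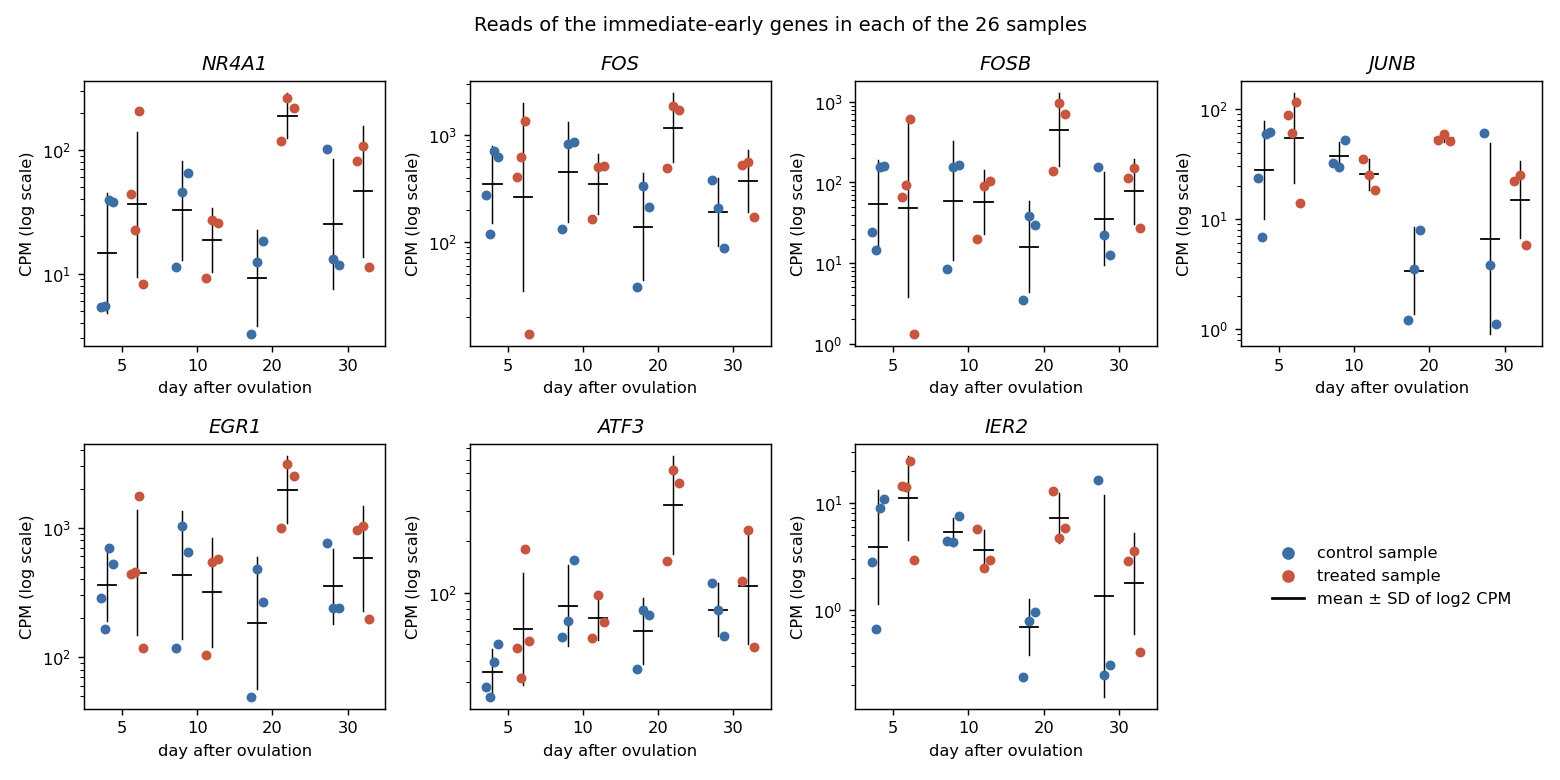
CPM (log axis) of NR4A1, FOS, FOSB, JUNB, EGR1, ATF3 and IER2 in each of the 26 samples by day after ovulation, with control samples in blue, treated samples in red and black lines for the mean ± SD of log2 CPM in a group. On day 20 all 3 treated samples sit above all 3 control samples in every panel, while the groups overlap on days 5, 10 and 30.

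NR4A1 (ENSCAFG00000007338) encodes an orphan nuclear receptor that binds DNA without a known natural ligand. On day 20 it was measured at 3.24, 12.4 and 18.3 CPM in control replicates 1, 2 and 3. It was measured at 118, 263 and 219 CPM in treated replicates 2, 3 and 4. The lowest treated sample was thus far above the highest control sample, and it was also above every sample of the other groups apart from 1 on day 5. NR4A1 thus had a log2 fold change of 4.19 with a standard error (SE) of 0.73 (edgeR FDR = 0.102). Among all 7 genes and 8 groups, ordered by the mean of log2 CPM, this was the single step between neighbouring groups at which the samples did not overlap. It lay between day 20 treated samples and day 30 treated samples, which had 81.3, 107 and 11.4 CPM in replicates 2, 4 and 5, and the other 48 of 49 neighbouring pairs of groups overlapped. NR4A1 was listed as higher in day 20 treated samples, so this step follows in part from that choice. The share of all genes with such a step was not counted.

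FOS and FOSB encode the Fos subunits of the AP-1 transcription factor, which bind DNA as pairs with a Jun protein. FOS (ENSCAFG00000017040) had 38.3, 334 and 215 CPM in the day 20 control replicates 1, 2 and 3. It had 498, 1884 and 1730.4 CPM in treated replicates 2, 3 and 4. The treated samples were higher without overlap, and replicate 2 was the lowest of them. FOS differed by 2.87 on the log2 scale (SE 0.86, edgeR FDR = 0.191), the only one of the 7 with an unadjusted P above 0.01. FOSB (ENSCAFG00000004443) had 3.48, 38.4 and 29.6 CPM in control replicates 1, 2 and 3 and 138, 958 and 706 CPM in treated replicates 2, 3 and 4. Here too replicate 2 was the lowest treated sample and replicate 1 the lowest control. The log2 fold change of FOSB was 4.72 (SE 1.07, edgeR FDR = 0.14), the largest of the 7.

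JUNB (ENSCAFG00000028848), a Jun protein that pairs with Fos proteins and is known to hold back cell division in many cells, had 1.20, 3.54 and 7.95 CPM in the day 20 control replicates 1, 2 and 3. It had 52.1, 59.6 and 50.8 CPM in treated replicates 2, 3 and 4. These 3 treated samples were close together, and all were above the controls. JUNB differed by 3.71 on the log2 scale (SE 0.68, edgeR FDR = 0.102). ATF3 (ENSCAFG00000012339), a stress-responsive factor of the same leucine zipper class that can pair with Jun proteins and repress genes, had 35.8, 79.6 and 74.3 CPM in control replicates 1, 2 and 3 and 154, 521 and 437 CPM in treated replicates 2, 3 and 4. Treated replicate 2 was again the lowest treated sample. ATF3 differed by 2.61 on the log2 scale (SE 0.60, edgeR FDR = 0.142), the smallest of the 7.

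EGR1 (ENSCAFG00000001254) encodes a zinc finger factor known to be needed for the pituitary's luteinizing hormone and to respond to growth factors in most tissues. It had 49.7, 477 and 266 CPM in the day 20 control replicates 1, 2 and 3, and 991, 3072 and 2482 CPM in treated replicates 2, 3 and 4. All treated samples were above all controls, with a log2 fold change of 3.11 (SE 0.86, edgeR FDR = 0.178). IER2 (ENSCAFG00000023155), a small nuclear protein and the least characterized of the 7, had 0.240, 0.793 and 0.954 CPM in control replicates 1, 2 and 3, from 4, 13 and 18 reads. It had 13.1, 4.75 and 5.81 CPM in treated replicates 2, 3 and 4, from 245, 100 and 114 reads. IER2 was the only one of the 7 whose highest treated sample was replicate 2, and the log2 fold change was 3.58 (SE 0.70, edgeR FDR = 0.108). The few reads in controls limit the precision of this value.

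Without day 20 treated replicate 2, all 7 genes were DEGs on day 20, with edgeR FDR between 0.009 for NR4A1 and 0.0534 for EGR1, in a contrast in which 7.4% of genes were then called. These FDR follow in part from the same choice. Omission of any other sample of day 20 left none of the 7 called. The log2 fold changes stayed positive in every one of these 6 fits.

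The libraries of day 20 also differed in markers of other cells. The 7 of 8 oocyte markers with an identifier summed to 153 to 270.1 CPM in treated and 4.57 to 9.14 CPM in control samples, with 3 of the 7 at 0 in all 3 controls. All 7 were higher in every treated sample (15.8% of all genes), and all 7 are on the same published list. Of the 14 genes that edgeR called on day 20 (0.102% of all genes), 5 were among these 7 markers. DESeq2 called all 7 as higher (7.15% of all genes). These counts follow in part from that list. Of the defining markers, ZP3 lay between 32.8 and 42.5 CPM in treated samples and at or below 0.0601 CPM in controls. The 4 luteal markers summed to 393 to 1970 CPM in treated and 2161 to 4126 CPM in control samples. They did not move together, since PRLR and FDX1 were lower without overlap (14.5% of all genes) while LHCGR and CYP19A1 overlapped. LHCGR lay at 14.9 to 119 CPM in treated and 30.4 to 115 CPM in control samples. The 3 granulosa cell markers summed to 530 to 880.3 and 1737 to 2493 CPM. The granulosa cell markers did not move together, since FSHR, which holds most of this sum, was lower without overlap (log2 fold change -2.05), FST was higher without overlap (4.34) and INHA overlapped (0.35). FSHR lay at 249 to 617 CPM in treated samples and at 1712 to 2403 CPM in controls, in which oocyte markers were low. Which cells of this tissue express FSHR was not tested. The single red blood cell marker with an identifier was at 1.23 to 8.62 and 0.120 to 0.212 CPM. The sums overlapped for 5 endothelial markers (303 to 1714 and 1069 to 1369 CPM), 3 leukocyte markers (18.0 to 83.6 and 50.5 to 83.1 CPM) and 6 smooth muscle and pericyte markers (428 to 861 and 383 to 508 CPM). Of these last 6, however, MYH11, TAGLN and CNN1 were higher without overlap (15.8% of all genes) and RGS5 lower without overlap (14.5% of all genes), around a median log2 fold change of 1.38, and edgeR called none of them. Log2 fold changes ran from -0.18 to 2.12 for the leukocyte markers and from -0.71 to 0.44 for the endothelial ones. Of the 3 leukocyte markers, 1 was higher with an unadjusted P below 0.05 (11.7% of all genes). The 10 most counted genes took 8.60 to 15.3% of reads in treated and 19.7 to 24.1% in control samples.

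Elsewhere in the series, oocyte markers and immediate-early genes moved the same way in some contrasts and not in others. The 7 markers had a median log2 fold change of -1.29 on day 10 and 2.25 on day 30. That of the 7 genes was -0.55 and 0.77. On day 5 the medians were -0.25 for the markers and 1.12 for the genes. For mature over early samples, which include day 20, they were -2.96 and -0.86 in controls and 2.30 and 1.33 in treated samples. The markers and the 7 genes were not high in the same samples throughout. Day 10 control replicates 2 and 3 had oocyte sums of 114 and 122 CPM, with a mean log2 CPM of the 7 genes of 4.78 and 6.52. Day 5 treated replicate 4, which had the second highest mean log2 CPM of the 7 genes (8.17), had an oocyte sum of 4.22 CPM. The part of these cell type markers, and of the share of the most counted genes, in the differences on day 20 and in the other contrasts was not tested.

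**Figure D2:**
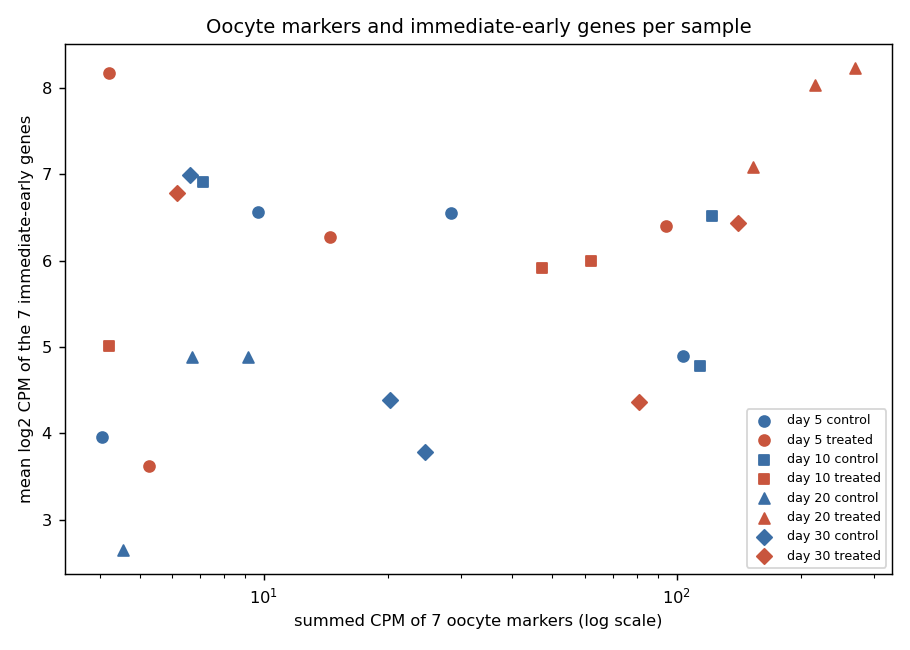
Mean log2 CPM of the 7 immediate-early genes against the summed CPM of 7 oocyte markers (log axis) in each of the 26 samples, with the day given by the symbol and control and treated samples by blue and red. The 3 day 20 treated samples (red triangles) lie at 153 to 270.1 CPM of oocyte markers and the 3 day 20 controls (blue triangles) at 4.57 to 9.14 CPM, whereas day 5 treated replicate 4 lies at 8.17 on the vertical axis with 4.22 CPM of oocyte markers.

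Differences between treated and control samples were smaller on the other days. On day 5, all 7 genes had a positive log2 fold change (51.4% of all genes), from 0.48 for FOS to 1.68 for NR4A1. None was called by edgeR (0% of all genes were) or by DESeq2 (0.733% of all genes), and 0 of 7 had an unadjusted P below 0.05 with edgeR (11.8% of all genes), with FDR between 0.412 and 0.764. The treated group held the extremes. Replicate 4 was the highest treated sample for 7 of 7 genes, and replicate 5 the lowest for 6 of 7. FOSB had 66.4, 92.8, 619.6 and 1.31 CPM in treated replicates 1, 2, 4 and 5, and 24.5, 14.5, 156 and 159 CPM in control replicates 1, 3, 4 and 5. All control samples of FOSB thus fell between the highest and the lowest treated sample, which differed 472-fold. FOS had 403, 629.9, 1372 and 13.9 CPM in the same treated samples and 276, 118, 717 and 621 CPM in the controls. Without treated replicate 4, the log2 fold change was -0.29 for FOS, -0.70 for FOSB and -0.30 for EGR1, and the other 4 genes stayed between 0.21 and 0.86. Markers of smooth muscle and pericytes moved on this day too. Their 6 genes summed to 802 to 2707 CPM in treated and 390 to 567 CPM in control samples, and their log2 fold changes ran from -0.35 for RGS5 to 3.41 for CNN1. Of the 6, 5 had an unadjusted P below 0.05 (11.8% of all genes), 4 were called by DESeq2 (0.733% of all genes) and 0 by edgeR. The part of these markers in the values of day 5 was not tested.

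On day 10, all 7 genes had a negative log2 fold change, while 52% of all genes had a positive one. The values ran from -0.98 for NR4A1 to -0.33 for ATF3, with an FDR of 1 for each by edgeR. None was called by edgeR or DESeq2, as for all other genes (0%), and 0 of 7 had an unadjusted P below 0.05 (0.902% of all genes). NR4A1 had 11.3, 45.4 and 65.7 CPM in control replicates 2, 3 and 4 and 9.26, 27.0 and 25.4 CPM in treated replicates 1, 4 and 5. JUNB had 32.0, 30.0 and 52.3 CPM in these controls and 35.3, 24.9 and 18.5 CPM in these treated samples. The groups overlapped for both genes. The log2 fold change turned positive for EGR1 without control replicate 3 (0.10) and for ATF3 without control replicate 4 (0.23).

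On day 30, 5 of the 7 genes had a positive (55.5% of all genes) and 2 a negative log2 fold change, from -1.21 for IER2 to 0.998 for FOS. None was called by edgeR (0% of all genes) or by DESeq2 (0.879% of all genes), which gave no P for JUNB and IER2 because of an extreme count, and 0 of 7 had an unadjusted P below 0.05 with edgeR (8.14% of all genes). Control replicate 2 was the highest control sample for 7 of 7 genes. IER2 had 16.3, 0.251 and 0.312 CPM in control replicates 2, 3 and 4, from 305, 4 and 5 reads, and 2.91, 3.53 and 0.406 CPM in treated replicates 2, 4 and 5. JUNB had 60.3, 3.82 and 1.12 CPM in these controls and 22.2, 25.3 and 5.85 CPM in these treated samples. For both genes, control replicate 2 was above all treated samples and the other controls were below them. Without this sample the log2 fold change was 2.85 for JUNB and 2.99 for IER2 (edgeR FDR = 0.164 and 0.199). It was then 2.42 for NR4A1 and 2.48 for FOSB, against 0.77 and 0.71 with all samples, and 1.50, 1.60 and 0.98 for FOS, EGR1 and ATF3. In this fit no gene of the whole table was called, and 6 of 7 had an unadjusted P below 0.05 (19% of all genes). Treated replicate 5 was the lowest treated sample for 7 of 7 genes, and without it the log2 fold change of JUNB was 0.23. Markers of other cells moved on this day too. The 5 endothelial markers summed to 591 to 1231 CPM in treated and 1705 to 2073 CPM in control samples. All 5 were lower with an unadjusted P below 0.05 (8.14% of all genes), and 4 of 7 oocyte markers were higher with one. EdgeR called none of them. Markers were analysed only if a published list of these samples holds them, so nothing is read from these counts. The part of these markers in the values of day 30 was not tested.

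**Figure D3:**
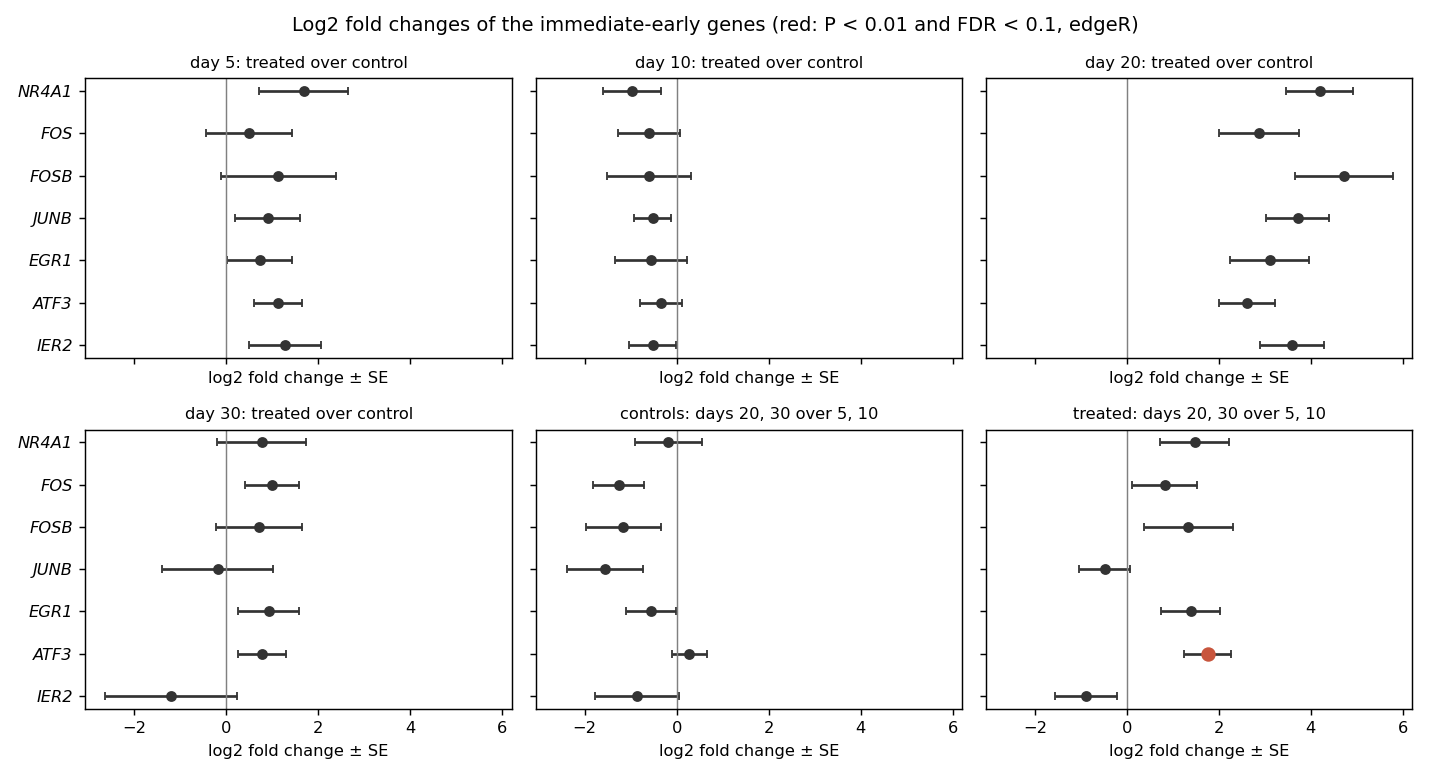
Log2 fold changes with their standard errors for the 7 genes in 6 contrasts, treated over control on days 5, 10, 20 and 30 in the first 4 panels and days 20 and 30 over days 5 and 10 in controls and in treated samples in the last panels, with a red point for a DEG by edgeR. Day 20 holds the largest values, from 2.61 to 4.72, and ATF3 in treated samples is the one DEG, with 1.76. The genes were listed as higher in day 20 treated samples, and both results follow in part from that choice.

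Whether the treatment effect on day 20 differed from that on the other days was tested as an interaction in a fit of all 26 samples. The effect on day 20 was larger than that on day 5, 10 and 30 for all 7 genes, with median differences in log2 fold change of 2.33, 4.09 and 3.49. Over all genes, 46.7%, 49.9% and 55.8% had a positive difference. None was called by edgeR (0% of all genes in each). An unadjusted P below 0.05 was reached by 1 of 7 genes against day 5 (6.11% of all genes), by 7 of 7 against day 10 (12.5%) and by 4 of 7 against day 30 (13.6%). DESeq2 called none against day 5 (0.374% of all genes), NR4A1, JUNB, EGR1 and ATF3 against day 10 (4.16%) and IER2 against day 30 (2.5%). NR4A1 had the largest difference against day 10 among those called by DESeq2, 5.14 by edgeR (SE 1.58, edgeR FDR = 0.169). Without day 30 control replicate 2, the difference from day 30 was 0.56 for IER2 (4.88 with all samples), 0.83 for JUNB (3.98), 1.74 for NR4A1 (3.49), 2.21 for FOSB (4.06), 1.34 for FOS (1.93), 1.47 for EGR1 (2.24) and 1.60 for ATF3 (1.89), with edgeR FDR between 0.647 and 0.944. These tests share the day 20 samples on which the genes were listed. A larger effect on day 20 than on the other days thus follows in part from that choice, and nothing is read from these counts against those of all genes.

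The time contrast asked how the genes differed between the early and the mature CL. In control samples, 6 of the 7 had a negative and ATF3 a positive value (51.3% of all genes) for mature over early samples, and the median log2 fold change was -0.86 against 0.02 over all genes. None was called by edgeR, which called 20.5% of all genes, and FOS alone had an unadjusted P below 0.05 (37.1% of all genes), with a log2 fold change of -1.26 (SE 0.56, edgeR FDR = 0.116). DESeq2 called none of the 7 and 26% of all genes.

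JUNB and IER2 depended on 1 library in this contrast. JUNB lay between 6.84 and 61.1 CPM (median 32.0, n = 7) in early controls and between 1.12 and 60.3 CPM (median 3.68, n = 6) in mature controls. Of the 6 mature controls, day 30 control replicate 2 was the only one above 7.95 CPM. IER2 lay between 0.667 and 10.8 CPM (median 4.40) in early and between 0.240 and 16.3 CPM (median 0.552) in mature controls, where the same sample was the only one above 0.954 CPM. With all samples, the log2 fold change was -1.55 for JUNB and -0.86 for IER2 (edgeR FDR = 0.181 and 0.511). Without day 30 control replicate 2, it was -3.42 for JUNB (SE 0.59, edgeR FDR = 0.00167) and -3.45 for IER2 (SE 0.63, edgeR FDR = 0.00231). Both were then DEGs, in a contrast in which 30.6% of all genes were called, and the other 5 genes were not. Omission of any other control sample left none of the 7 called. The mature controls include the day 20 controls of the contrast in which the genes were listed, so lower values in mature controls follow in part from that choice. Markers of other cells moved with this contrast as well. In mature controls edgeR called 3 of 7 oocyte markers (median log2 fold change of the 7 -2.96) and the red blood cell marker (-3.45) as lower. It also called 2 of 3 leukocyte, 2 of 3 granulosa cell and 2 of 6 smooth muscle and pericyte markers as lower. As higher it called 3 of 5 endothelial and 1 of 4 luteal markers, while 20.5% of all genes were called. Only markers with an identifier were counted, of 8 leukocyte, 6 granulosa cell and 7 endothelial markers. The published list of this contrast holds 2 of the 3 leukocyte, 2 of the 3 granulosa cell and 3 of the 5 endothelial markers. It also holds 2 oocyte, 3 smooth muscle, 1 luteal and the red blood cell marker. These counts follow in part from that list, and nothing is read from them. The part of these markers in the values of the 7 genes was not tested.

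In treated samples, ATF3 was the only DEG among the 7 in the time contrast, in which edgeR called 4.65% of all genes. It lay between 31.8 and 181 CPM (median 54.6, n = 7) in early and between 48.3 and 521 CPM (median 193, n = 6) in mature treated samples, and the groups overlapped. The log2 fold change was 1.76 (SE 0.51, edgeR FDR = 0.09). EGR1 reached an unadjusted P below 0.05 in addition (19.6% of all genes), with a log2 fold change of 1.38 (SE 0.65, edgeR FDR = 0.252). JUNB and IER2 had negative log2 fold changes (-0.48 and -0.89) and the other 5 genes positive ones (49.8% of all genes). The call of ATF3 was lost when any 1 of 9 samples was left out (day 5 treated replicate 1, 2 or 5, day 10 replicate 1 or 5, day 20 replicate 3 or 4, day 30 replicate 2 or 4), with edgeR FDR up to 0.194. Without day 5 treated replicate 4, NR4A1 was called as well, with a log2 fold change of 2.56, which made 2 DEGs. DESeq2 called ATF3 alone (FDR = 0.0145, 11.8% of all genes). With the replicate number as a block, the edgeR call of ATF3 was lost. ATF3 had 154, 521 and 437 CPM in day 20 treated samples and 117, 233 and 48.3 CPM in day 30 treated samples. The mature treated samples include the day 20 treated samples of the contrast in which the genes were listed. Higher values in mature treated samples, and the call of ATF3, thus follow in part from that choice. Cell type markers moved here too. The median log2 fold change was 2.30 for the 7 oocyte markers and -1.82 for the 6 smooth muscle and pericyte markers. Of these, 5 oocyte markers (higher) and 4 smooth muscle ones (lower) had an unadjusted P below 0.05 (19.6% of all genes). EdgeR called 1 smooth muscle and 1 granulosa cell marker as lower and 1 luteal marker as higher. Nothing is read from these counts. The part of these markers in the value of ATF3 was not tested.

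Samples of 1 group differed more in most of these genes than in most other genes. The SD of log2 CPM pooled over the 8 groups was 2.21 for FOSB, 1.64 for FOS, 1.54 for IER2, 1.50 for NR4A1, 1.41 for JUNB, 1.34 for EGR1 and 0.80 for ATF3. The median over all genes that passed the filter was 0.64. FOSB stood at the 99.8 percentile of all genes and EGR1, the last but one of the 7, at the 96.1, whereas ATF3 stood at the 67.4. Between the highest and the lowest of the 26 samples, FOSB differed 729.7-fold and ATF3 21.1-fold. The share of the sum of squares that lay inside groups was 36.2% for ATF3, 43.8% for JUNB, 51.3% for IER2, 52.0% for NR4A1, 61.2% for EGR1, 69.3% for FOSB and 73.2% for FOS, around a median of 60.2% over all genes. In each of the 8 groups the median SD of the 7 genes was above that of all genes. It was 1.74 against 0.45 in day 30 controls, where JUNB and IER2 had SDs of 2.88 and 3.12, and 0.87 against 0.76 in day 20 treated samples, where JUNB had an SD of 0.12.

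The 7 genes deviated from their group means together. Over the 26 samples, all 21 pairs of genes were positively correlated after the group means were removed, with a median Pearson's r of 0.74 and a median Spearman's rho of 0.74. All 21 had an FDR below 0.05 by either measure (permutation test with 100000 resamples within groups, two-sided, adjusted over the 21 pairs). The highest r was that of FOS and FOSB, the Fos proteins (r = 0.98, rho = 0.94, FDR = 7e-05 for each in the permutation test, where 1e-05 is the smallest P that the resamples can give). It was followed by JUNB and IER2 (r = 0.94, rho = 0.88, permutation FDR = 0.000157 and 0.000236) and by FOSB and EGR1 (r = 0.93, rho = 0.89). The lowest was that of ATF3 and IER2 (r = 0.45, rho = 0.44, permutation FDR = 0.0273 and 0.049). JUNB was closer to IER2 than to FOS (r = 0.68) or FOSB (r = 0.72), its partners in AP-1. Without the 2 samples farthest from the median of the first gene, r remained between 0.35 and 0.97 with a median of 0.75. The same libraries and scaling factors enter both genes of each pair, and no batch is named in the sample descriptions. Pairs of other genes were not tested, so the values do not show whether such correlations are particular to these 7 genes.

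**Figure D4:**
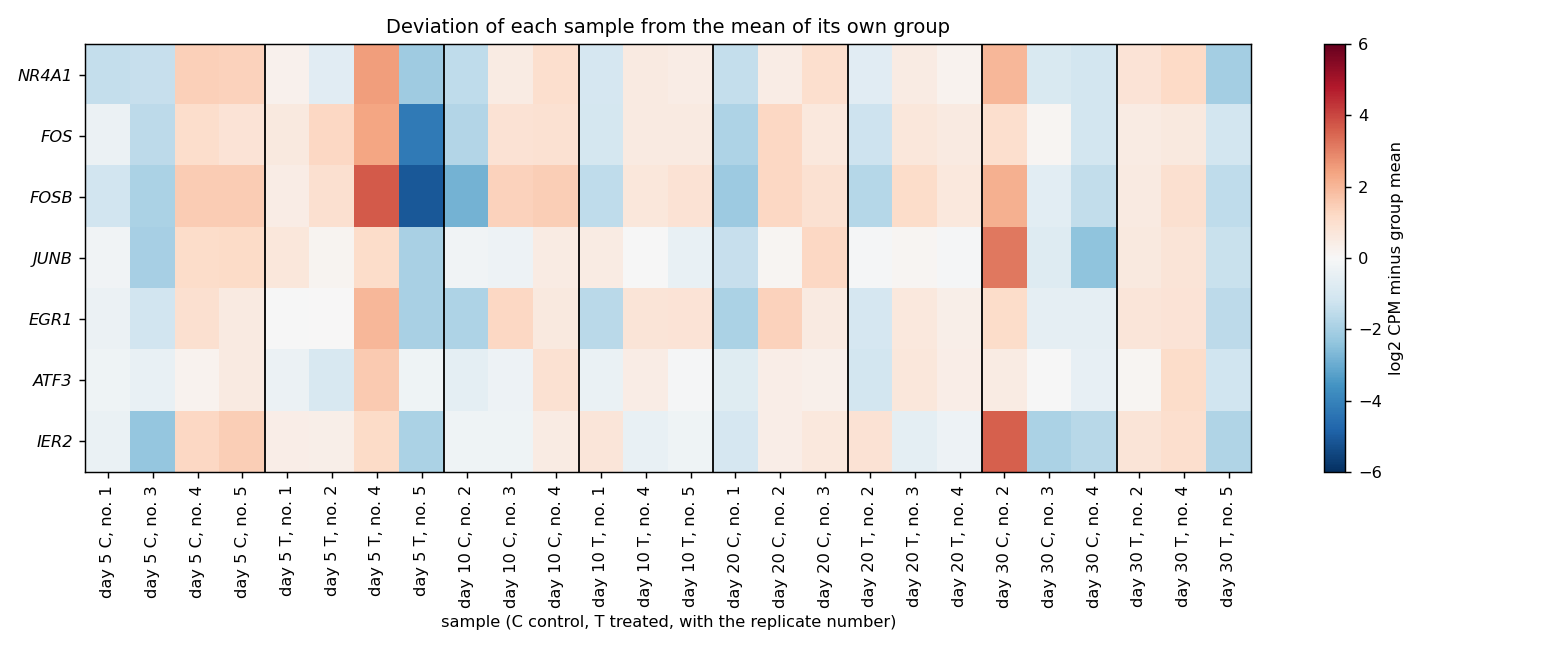
Log2 CPM of each sample minus the mean of its own group for the 7 genes, with the 26 samples in columns by group (C control, T treated) and positive deviations in red and negative ones in blue. Day 5 T replicate 4 and day 30 C replicate 2 are red in every row, and day 30 T replicate 5 is blue in every row.

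**Figure D5:**
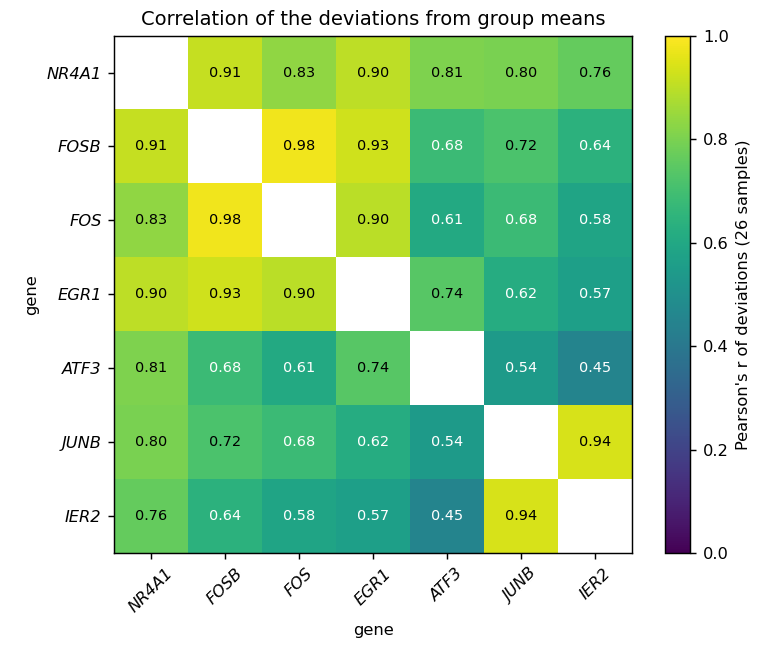
Pearson's r between the deviations from group means of each pair of the 7 genes over 26 samples, as colour and as value. FOS and FOSB reach 0.98, JUNB and IER2 0.94, and ATF3 with IER2 is lowest at 0.45.

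The genes whose deviations were most like the mean standardized deviation of the 7, among genes with a symbol, were BTG2 (r = 0.97), ZFP36 (0.93), EGR2 (0.90), ZFP36L1 (0.89) and CYR61 (0.84), over 26 samples. Only genes on a published list of DEGs of these samples have a symbol here. All 5 belong to a list of further immediate-early and primary response genes drawn up for comparison. BTG2 is an antiproliferative factor, ZFP36 and ZFP36L1 are proteins that promote decay of messenger RNAs, EGR2 is a relative of EGR1, and CYR61 is a secreted matrix protein. BTG2 had a median of 131 CPM in day 20 treated samples and of 6.65 CPM in day 20 controls, and medians between 3.95 and 29.4 CPM in the other 6 groups. Its highest day 5 treated sample, at 63.2 CPM, was above the lowest day 20 treated sample, at 31.8 CPM. EGR2 reached 67.3 CPM in 1 of the 3 day 30 controls, whose median was 0.811 CPM.

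Of the 55 further immediate-early and primary response genes, 40 had an identifier, and 26 of the 40 are on the published list that also holds the 7 genes. A further published list, of DEGs between early and mature controls, holds 17 of the 40. Since a gene was analysed by name only if such a list holds it, the counts of this and the following lists are raised by that choice on day 20 and in the time contrast of controls, and nothing is read from them against the shares of all genes. On day 20, 37 of the 40 had a positive log2 fold change, and the median of the list was 2.18 (0.11 over all genes), 31 had an unadjusted P below 0.05 and a higher level (11.7% of all genes), and 30 were higher without overlap (15.8% of all genes). None was called by edgeR (0.102% of all genes), 28 were called as higher by DESeq2 (7.15% of all genes), and 31 were called by edgeR without day 20 treated replicate 2 (7.4% of all genes). The largest difference was that of EGR2, with 0.120 to 1.83 CPM in control and 22.2 to 81.6 CPM in treated samples and a log2 fold change of 5.57 (SE 0.95, edgeR FDR = 0.102). BTG2 (4.45), the nuclear receptor NR4A2 (3.91) and EGR3 (3.89), a further zinc finger factor, followed with edgeR FDR of 0.102, 0.15 and 0.143. NR4A2 had 2.58, 2.62 and 2.49 CPM in control replicates 1, 2 and 3 and 3.04, 74.6 and 33.2 CPM in treated replicates 2, 3 and 4.

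On day 5, 4 of the 40 genes had an unadjusted P below 0.05 with edgeR (11.8% of all genes) and 2 were called by DESeq2 (0.733% of all genes). On day 10, 0 of 39 had one (0.902% of all genes), and on day 30, 4 of 39 (8.14% of all genes). Neither edgeR nor DESeq2 called any of them on day 10 or 30, nor edgeR on day 5.

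In the time contrast of controls, 14 of the 40 were called by edgeR (20.5% of all genes), 8 lower and 6 higher in mature controls. The lower ones included the signalling inhibitor SOCS3, with 0.374 to 6.42 CPM in mature and 7.95 to 28.7 CPM in early controls and a log2 fold change of -2.45 (SE 0.57, edgeR FDR = 0.00883). The higher ones included TIPARP, with 71.7 to 125 CPM in mature and 30.8 to 62.5 CPM in early controls and a log2 fold change of 1.15 (SE 0.18, edgeR FDR = 0.00118), and the phosphatase DUSP4, with 701 to 951 and 357 to 661 CPM (log2 fold change 0.82, SE 0.15, edgeR FDR = 0.00301). These 3 genes are named here after their values were seen, because they separated all early from all mature controls. The share of all genes that separated them was not counted, and nothing is read from this separation. Without day 30 control replicate 2, 25 of the 40 were called (30.6% of all genes). In treated samples 1 of the 40 was called (4.65% of all genes), and with single samples left out the count lay between 0 and 7, with 7 without day 20 treated replicate 2.

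Of 28 kinases and partner factors that act on the 7 genes or pair with their products, 15 had an identifier, 11 of them from the published list of the time contrast and 3 from that of day 20, and 14 were tested on day 20. There, 8 had a positive and 6 a negative log2 fold change, 6 were higher (15.8% of all genes) and 3 lower without overlap (14.5% of all genes), and 3 had an unadjusted P below 0.05 and a higher level (11.7% of all genes). By edgeR none was called (0.102% of all genes), and by DESeq2 1 was called as higher (7.15% of all genes). The SRF cofactor ELK3 and the transcription factor CREM were among those lower, with log2 fold changes of -0.79 and -0.68 (edgeR FDR = 0.349 and 0.511). Serum response factor (SRF), which binds the promoters of several of the 7 genes, had 26.7 to 38.6 CPM in control and 79.3 to 103 CPM in treated samples and a log2 fold change of 1.58 (SE 0.37, edgeR FDR = 0.144). JDP2, a dimer partner of Jun proteins, the kinase RPS6KA4 and ELK1, a cofactor of SRF, had log2 fold changes of 1.23, 1.14 and 1.10 (edgeR FDR = 0.348, 0.259 and 0.314), without overlap of the groups. In the time contrast of controls, 7 of the 15 were called (20.5% of all genes), 4 higher and 3 lower in mature samples. RPS6KA4, named above for day 20, was among the lower ones, with a log2 fold change of -0.89 (SE 0.24, edgeR FDR = 0.018). Of 13 heat shock and chaperone genes, DNAJB1 alone had an identifier. It had 27.3 to 54.9 CPM in control and 78.2 to 103 CPM in treated samples on day 20, with a log2 fold change of 1.36 (SE 0.43, edgeR FDR = 0.196).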

How the data were processed

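RNA-Seq reads of 26 CL samples were aligned by the authors with STAR to CanFam3.1 and counted with featureCounts. The deposited values are raw read counts per Ensembl gene, neither normalized nor filtered. The authors state that 4 outlying samples had been removed, and those were not used here. Samples were grouped by the day and treatment of their labels.

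Counts were tested with edgeR 4.0.16 (quasi-likelihood, TMM factors, R 4.3.3) on the samples of each contrast. A gene was kept if its mean reached 10 reads in 1 or more groups, P was adjusted over all genes tested, and DEGs had P below 0.01 and FDR below 0.1. DESeq2 1.42.0, the tool of the authors, was an alternative, as were RLE factors, no filter, a fit of all samples, an FDR below 0.05 alone, a prior count of 0.5, the replicate number as a block and the omission of each sample. Log2 CPM used a prior count of 2. The smallest mean that passed the filter rests on few reads and gives an imprecise fold change.

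Members and gene lists were chosen with earlier results of these data known. Symbols came from the study's supplementary tables (4355 of 4888 listed identifiers), and genes without one there were not analysed by name. These tables list DEGs between early and mature controls or between treated and control samples, so a gene with a symbol was a DEG of the study in these samples, which raises the counts of members and lists in those contrasts. Named list genes were the 4 with the largest absolute log2 fold change on day 20, and the 5 genes most like the members. SOCS3, TIPARP and DUSP4, the kinases and partner factors ELK3 and CREM, the marker genes named singly and the second value of RPS6KA4 were chosen after values were seen. Tests were tried on simulated data. The samples are separate dogs, and the 30 pairs of samples within groups differed by more than counting noise.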

Additional observations from a re-analysis of the deposited data

Results flagged for a closer look

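Among 42 groups of at least 4 samples (7 genes in the 2 day 5 groups and in early and mature control and treated samples), the highest or lowest sample lay apart from the rest of its group in 2, by Dixon's ratio of its gap to the group's range on log2 CPM at the 95% critical value. Chance gives this in about 1 of 20 groups. IER2 in day 30 control replicate 2, at 16.3 CPM, lay above the other 5 mature controls (ratio 0.711). NR4A1 in day 30 treated replicate 5, at 11.4 CPM, lay below the other 5 mature treated samples (ratio 0.626).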

How the results depend on the processing

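Of 1197 values of the 7 genes under alternatives, 1139 kept their direction and side of the threshold, 34 passed it in addition, 10 lost it and 14 changed sign. The number of the 7 called on day 20, 0 as reported, was 7 with DESeq2, 2 with RLE factors, 3 without a filter and 6 in a fit of all 26 samples, and it ranged from 0 to 7 when single samples were left out. In the time contrast it was 1 in a fit of all samples and 0 to 2 with single samples left out for controls (0 as reported), and 0 with an FDR below 0.05 alone and 0 to 2 with single samples left out for treated samples (1 as reported). DESeq2 called 4 and 1 of the 7 in the differences of the day 20 effect from day 10 and day 30 (0 as reported). With single samples left out, the log2 fold change ranged from -0.29 to 0.89 for FOS, -0.70 to 1.60 for FOSB and -0.30 to 1.08 for EGR1 on day 5, from -1.04 to 0.10 for EGR1 and -0.62 to 0.23 for ATF3 on day 10, from -0.74 to 2.85 for JUNB and -1.77 to 2.99 for IER2 on day 30, and from -1.36 to 0.10 for NR4A1 in the time contrast of controls. Apart from the samples left out, the cause of these changes was not tested.

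Replicate numbers recur between groups, but same-numbered samples did not deviate together throughout. Among 8 pairs, that of day 5 number 1 had a correlation of 0.51, and the others lay between -0.39 and 0.05. With the number as a block, the call of ATF3 in the time contrast of treated samples was lost (log2 fold change 1.11, edgeR FDR = 0.221), which left 0, and the log2 fold change changed sign for FOS on day 5 (-0.67), for JUNB and IER2 on day 30 (1.46 and 0.32) and for FOS in the time contrast of treated samples (-0.11). The block on day 10 could not be fitted with 1 shared number. With 3 samples a group and the pooled SDs of these genes, small differences were not detectable, and IER2 rests on under 20 reads in 5 of the 6 mature controls.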

Other observations

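The levels of JUNB and IER2 relative to the other 5 genes had a lower mean in mature than in early samples, with and without treatment. The mean log2 CPM of JUNB and IER2 minus that of NR4A1, FOS, FOSB, EGR1 and ATF3 was -3.05 ± 0.87 (SD, n = 7) in early controls and -4.89 ± 1.18 (n = 6) in mature controls. It was -2.63 ± 1.25 (n = 7) in early treated and -4.88 ± 0.86 (n = 6) in mature treated samples. The ranges overlapped, from -4.18 to -1.67 and from -5.96 to -2.81 in controls and from -4.20 to -1.29 and from -5.80 to -3.32 in treated samples. These genes were grouped after their values were seen, and no test was made.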
